A study of Mus musculus with 2 samples.

Results

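Rab GTPases are small proteins that switch between a GTP-bound form on a membrane and a GDP-bound form in the cytosol, and each marks a particular compartment. Exchange factors load a Rab with GTP, GTPase activating proteins turn it off, and effectors such as tethers and motor adaptors bind the GTP form. In islet endocrine cells Rab3 and Rab27 proteins are best known for bringing hormone granules to the plasma membrane, and Rab1, Rab2 and Rab6 for traffic through the endoplasmic reticulum and Golgi, where prohormones are made and packed. The genes described here are the protein-coding mouse genes whose symbol is Rab followed by a number and an optional letter or digit. They numbered 59 of the 38924 genes listed in the files. All 59 had a value in each library, and 54 had 100 or more counts over both libraries, the minimum used for a ratio.

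RNA came from pancreatic islets of male mice, 10 weeks old, fed standard chow. One group was C57BL/6J (B6), the inbred strain behind the mouse reference genome, and the other CAST/EiJ (CAST), an inbred strain of wild origin (Mus musculus castaneus). Neither group carried a transgene or drug treatment per the labels. Islets of 2 mice were pooled for each strain, so each strain is 1 library of pooled animals, and nothing measures how mice of a strain vary. No difference was therefore tested. The term "called" below means at least 2-fold apart between these 2 libraries, and the 95% intervals cover counting error only.

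The B6 library held 76600903 expected counts and the CAST library 104324631. Beta cell markers such as the insulin genes were 49.1% (B6) and 55.8% (CAST) of transcript molecules, so the labelled tissue showed its defining genes. Of the 9 beta markers 7 had a ratio above 0, G6pc2 and Iapp lay below it, and none was called. Ins2 alone held 404420 (B6) and 477730 (CAST) TPM, while Iapp had 28752 and 22355 and G6pc2 1399 and 835. The libraries also differed in markers of other cells. Acinar genes (16 of 16 with a ratio above 0, 13 called) summed to 7216 TPM in B6 and 25933 in CAST, of which Amy2b alone held 3.87 and 4670. Fibroblast and stellate genes (8 of 8 above 0, 5 called) summed to 26.6 and 50.7 TPM, and alpha cell genes (4 of 5 below 0, none called) to 62964 and 38040 TPM. Of the 4 delta and PP cell markers 3 lay below 0, with 1 called higher in B6. Sst had 8290 and 3489 TPM (log2 -0.90), while Ppy, alone above 0, had 5152.3 and 6300.5 (log2 0.64). Of 6 duct markers with enough counts 4 lay above 0, 3 called higher in CAST, and Krt7, the most counted, had 17792 and 15848 counts. Summed levels of the other lists were 13455 and 9796 TPM for delta and PP cells, and 133 and 103 for duct. They were 198 and 184 TPM for endothelium (5 of 6 above 0, 1 called higher in CAST), 18.5 and 13.4 for leukocytes (4 of 6 above 0, none called) and 11.7 and 9.41 for Schwann cells (4 of 5 above 0, 1 called higher in CAST). No marker of these lists had 0 counts in either library. In bulk RNA of this kind, fewer cells of a type and less RNA per cell cannot be told apart.

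Together the Rab genes reached 1988 TPM in B6 and 1797 TPM in CAST, or 0.199% and 0.180% of transcript molecules. TPM is the deposited fraction of transcript molecules scaled to 1000000 and corrects for length, so it can be compared between genes. In B6 51 of the 59 genes reached 1 TPM and 36 reached 10 TPM, and in CAST 49 and 34. The 10 highest genes held 54.1% of the summed Rab TPM in B6 and 56.2% in CAST, and 9 genes were among the 10 highest in both. Rab2a, which acts between endoplasmic reticulum and Golgi, led in B6 with 163.8 TPM (141.1 in CAST). Rab1a, needed for export from the endoplasmic reticulum, led in CAST with 161.8 TPM (160.7 in B6). Rab7, the Rab of late endosomes and lysosomes, came after them in both, at 157.4 and 139.6 TPM. These 3 genes stood clear of the rest in each library, since the next highest was at 109.5 TPM in B6 and 102.3 in CAST.

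Next in B6 came Rab37 (109.5 TPM), Rab27a (101.8), Rab3a (90.03) and the recycling Rab Rab11a (84.1), so 3 of the 7 highest Rab genes belonged to the group of regulated exocytosis. In CAST the order after the first 3 was Rab27a (102.3), Rab6a (98.1), Rab3a (90.16), Rab11a (82.5) and Rab37 (69.2). Rab1b, the paralog of Rab1a, held rank 9 in each library (70.7 and 66.4 TPM). Rab14, an early endosome Rab at 71.9 TPM in B6, held rank 12 in CAST at 55.0, and Rab5a, which drives fusion of early endosomes, held rank 10 in CAST (58.6 TPM, against 58.8 in B6). With 1 library per strain, neighbours in this order have no replicate spread to be set against. Across the 59 genes the Spearman correlation of TPM between the libraries was 0.986, a description over genes that share library and annotation.

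**Figure D1:**
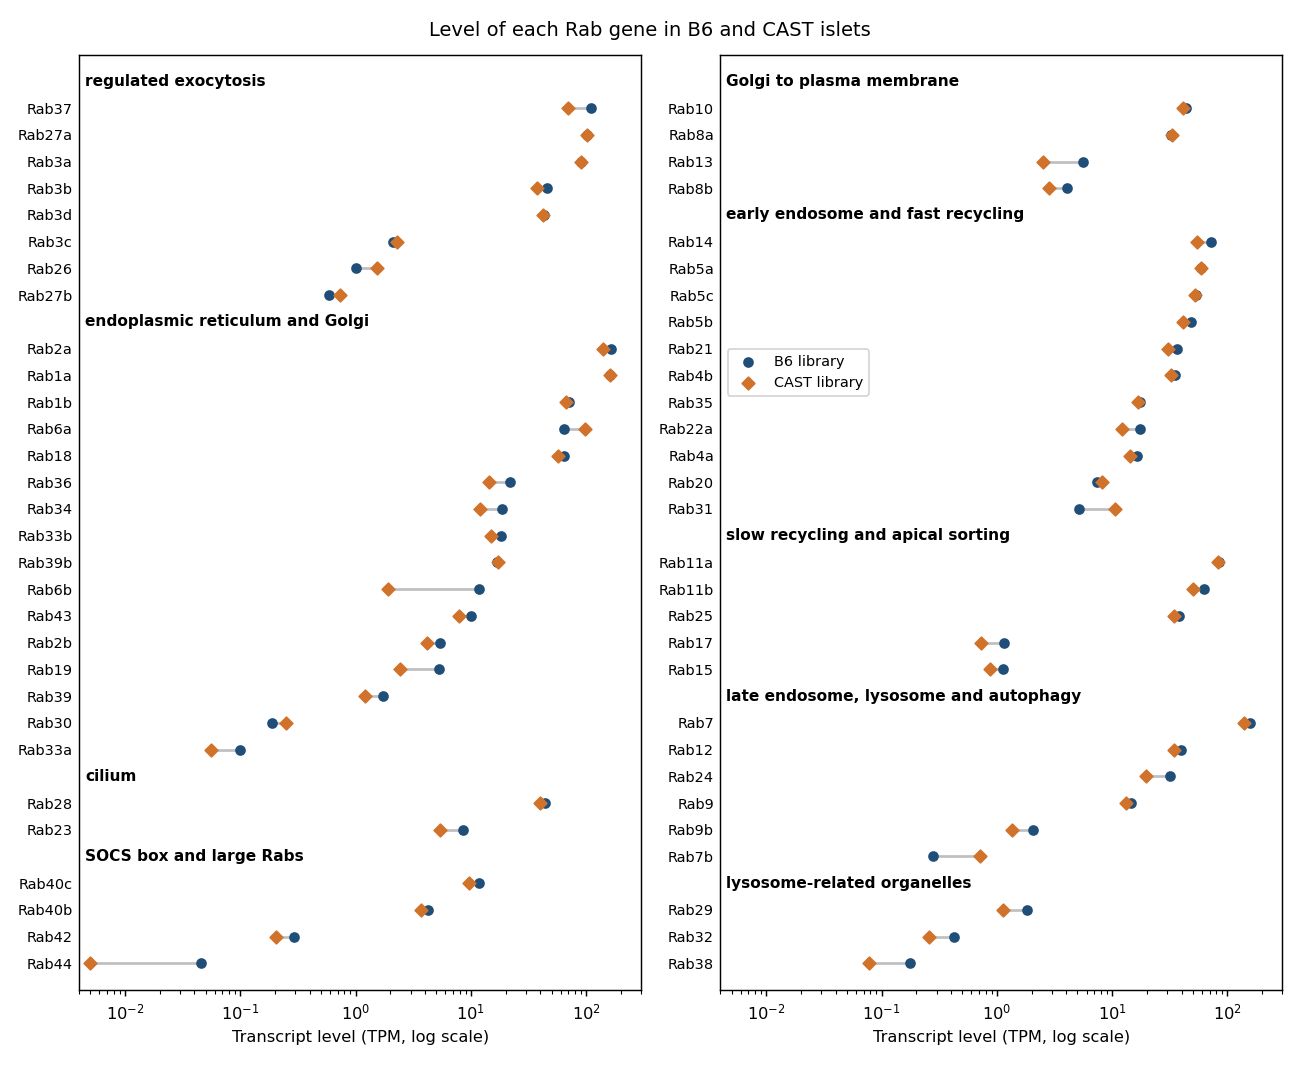
Transcript level of each of the 59 Rab genes in TPM (log scale) in the B6 library (circles) and the CAST library (diamonds), grouped by role. The pairs lie close together for most genes, with the widest gaps above 1 TPM at Rab6b (11.8 and 1.92), Rab19, Rab13 and Rab31.

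For the comparison of strains, counts per gene were scaled by edgeR's TMM factors, and log2 ratios are written as CAST over B6. Of the 54 Rab genes with 100 or more counts, 2 were called higher in CAST (Rab31 and Rab7b) and 1 higher in B6 (Rab6b). Over all 14768 genes with that many counts 7.18% were called higher in CAST, 5.99% higher in B6 and 13.2% in either direction, against 5.56% of the Rab genes. Within 1.5-fold were 46 Rab genes (85.2%), against 74.8% of all genes. A further 5 lay between 1.5-fold and 2-fold, namely Rab6a, Rab26 and Rab27b on the side of CAST and Rab19 and Rab13 on that of B6. The counting interval included equality for 11 of the 54. A ratio above 0 was found for 35 Rab genes (64.8%) and for 51.7% of all genes, and by TPM with 1 added for 12 (22.2%) and 21.2%, shares against which the counts of each group below are to be read. The median log2 ratio of the Rab genes was 0.14, and that of all genes 0.02. With total-count scaling these medians were -0.013 and -0.14, and by TPM -0.18 and -0.26, so the sign of small ratios depends on the scale and only the distance from the median of all genes can be read.

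**Figure D2:**
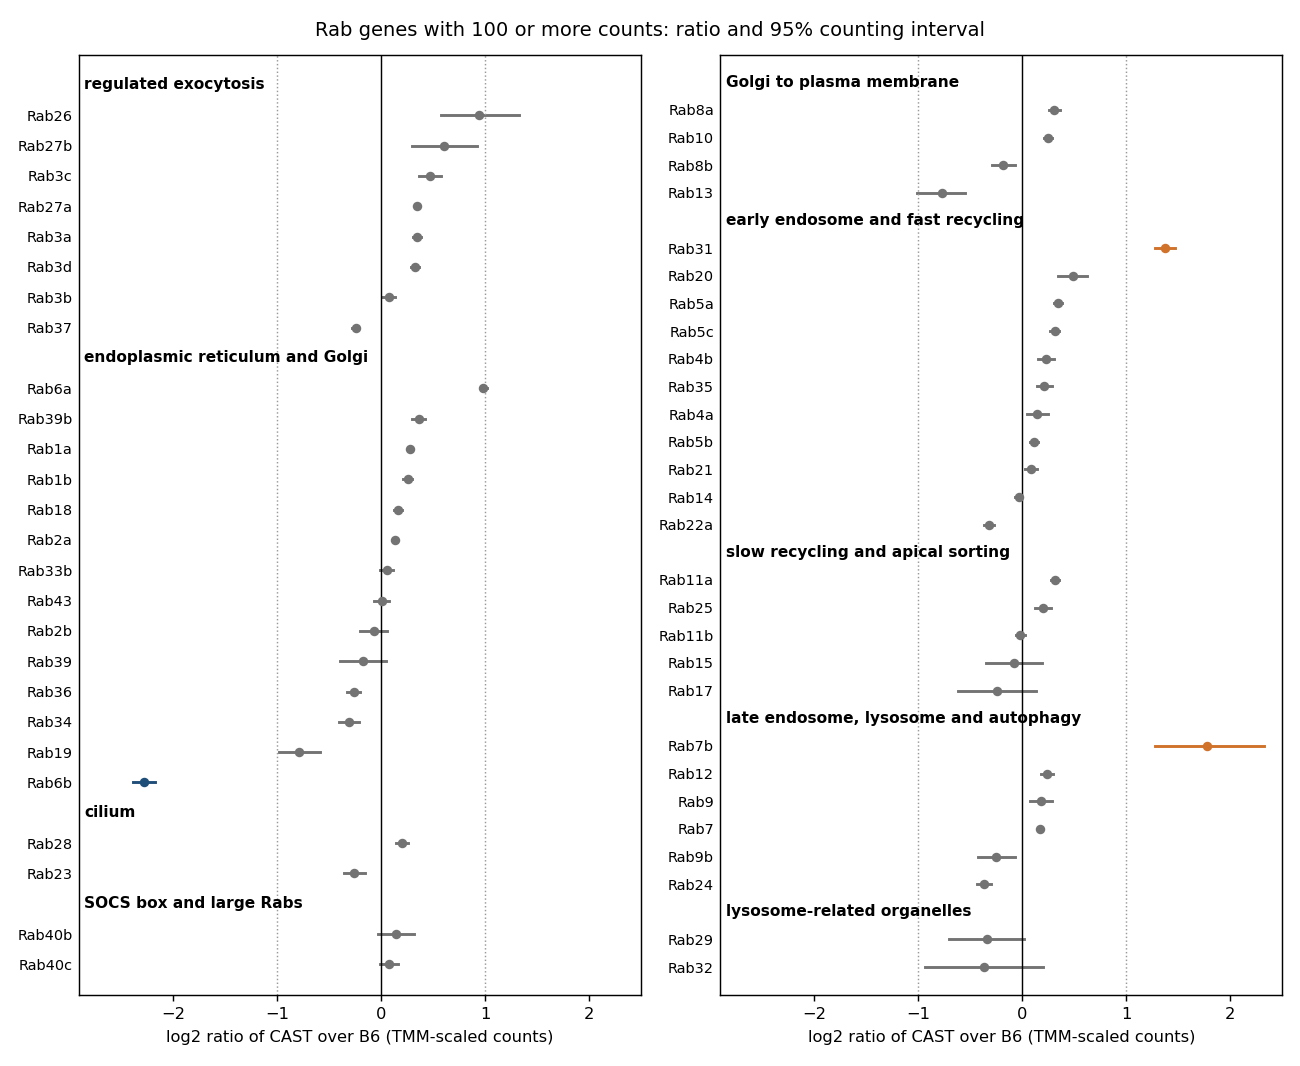
Ratio of CAST over B6 on the log2 scale (TMM-scaled counts) for the 54 Rab genes with 100 or more counts, by role, with horizontal bars for the 95% counting interval. Dotted lines mark 2-fold. Only Rab6b lies left of them (-2.27) and only Rab31 (1.37) and Rab7b (1.77) lie right, with Rab6a at 0.98.

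The widest difference was in the Rab6 pair, which acts at the Golgi and, for Rab6a, on secretory carriers that leave it. Rab6b, the paralog known mainly from brain, had 3549 (B6) and 897 (CAST) counts, or 11.8 and 1.92 TPM. It was 4.83-fold higher in B6 (log2 -2.27, 95% interval -2.38 to -2.17). Rab6a, the widely expressed paralog, had 12553 and 30328 counts (64.8 and 98.1 TPM) and lay just inside the 2-fold line, 1.98-fold higher in CAST (log2 0.98, 0.95 to 1.01). By TPM, with 1 added before the log, the ratio of Rab6a was 0.59 and that of Rab6b -2.13. Of the summed Rab6 level, Rab6b held 15.4% in B6 and 1.92% in CAST, while the summed counts of both genes differed by log2 0.67 (0.64 to 0.69). The paralogs thus stood in opposite directions. Alpha cell markers, also lower in CAST, summed to 62964 and 38040 TPM, and their part in the Rab6b difference was not tested.

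Reads of the 2 paralogs can be told apart by sequence. No stretch of 50 bases of the longest Rab6b transcript (chromosome 9) occurs in a transcript of any other listed gene. The difference in Rab6a lay mostly in 1 transcript, Rab6a-201. It had 9121 and 25370 counts (44.9 and 80.5 TPM, log2 1.19, 1.15 to 1.22). The transcripts Rab6a-202 and Rab6a-203 together had 3388 and 4924 counts (log2 0.25, 0.19 to 0.31). What separates them inside the coding part is a choice between 2 neighbouring versions of exon 4, each of 106 bases, which encodes part of the GTP-binding core. The first version was in 69.4% (B6) and 82.1% (CAST) of the gene's TPM, and the second in 28.5% and 17.2%. Counts of single transcripts are estimates, and how uncertain RSEM's division of reads was is not stated in these files. The exons are shown because these letters carry the difference between the transcripts, with the matching exon of Rab6b. Each is written 5′ to 3′ from the GENCODE M21 transcripts (GRCm38, plus strand), with capitals where a base differs from the Rab6a-201 exon.
Rab6a-201, chr7:100629838-100629943: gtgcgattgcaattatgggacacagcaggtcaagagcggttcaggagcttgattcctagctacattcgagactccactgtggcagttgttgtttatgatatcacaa
Rab6a-202, chr7:100629666-100629771: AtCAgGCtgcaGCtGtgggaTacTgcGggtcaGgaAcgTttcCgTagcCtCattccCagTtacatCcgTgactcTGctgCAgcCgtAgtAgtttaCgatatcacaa
Rab6b-201, chr9:103161064-103161169: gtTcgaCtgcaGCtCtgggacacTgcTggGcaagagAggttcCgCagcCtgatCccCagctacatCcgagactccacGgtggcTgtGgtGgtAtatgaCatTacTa
The alternative exon of Rab6a differs from the first at 30 of 106 bases, more than the exon of the separate gene Rab6b does, at 23. The longest identical run with the Rab6a-201 exon is 10 bases for the alternative exon and 11 for Rab6b.

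**Figure D3:**
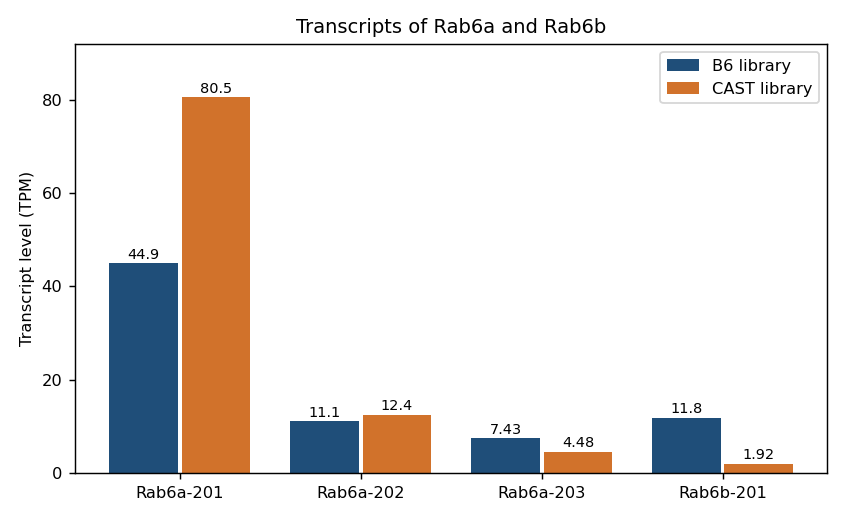
Level in TPM of the 3 main Rab6a transcripts and the Rab6b transcript in the B6 library (blue) and the CAST library (orange), 1 library each. Rab6a-201 stands at 44.9 and 80.5, Rab6a-202 at 11.1 and 12.4, Rab6a-203 at 7.43 and 4.48 and Rab6b-201 at 11.8 and 1.92.

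Among the Rabs of early endosomes and fast recycling, 9 of 11 had a ratio above 0 and the median was 0.21 (by TPM 2 of 11 and -0.13). Rab31, which sorts cargo between the trans-Golgi network and endosomes, stood apart with 1145 (B6) and 3615 (CAST) counts, or 5.21 and 10.6 TPM. It was 2.58-fold higher in CAST (log2 1.37, 1.27 to 1.47). By TPM with 1 added, the ratio was 0.90 and the call was lost. Its single listed transcript shared no 50-base stretch with another gene. Rab22a, its closest paralog and also an endosomal Rab, was the lowest of the group, with 7478 and 7323 counts (log2 -0.32, -0.37 to -0.27). Rab31 made up 23.1% of the pair's TPM in B6 and 46.6% in CAST. Fibroblast and stellate markers, which summed to 26.6 and 50.7 TPM, and acinar markers were higher in the same library, and their part in the Rab31 difference was not tested.

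The 3 Rab5 genes, the master regulators of early endosome fusion, were close to each other in level and in ratio. Rab5a had 8666 and 13418 counts (log2 0.34), Rab5c 6367 and 9655 (0.31) and Rab5b 9678 and 12751 (0.11). The share of each in the summed Rab5 TPM moved by at most 3.08 percentage points, from 30.1% to 27.0% for Rab5b. Rab20, an endosome and phagosome Rab, had 660 and 1128 counts (log2 0.48, 0.34 to 0.62) and 22.9% of its 50-base stretches lie in the overlapping noncoding gene E230013L22Rik, which had 262 and 307 counts. Rab4a and Rab4b, which act in fast recycling, were at log2 0.14 and 0.23, Rab35 at 0.21, Rab21 at 0.09 and Rab14 at -0.04.

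The Rabs of regulated exocytosis, which dock and prime secretory granules, had no called member among 8. Of these 7 lay above 0, with a median log2 ratio of 0.35. With total counts 6 lay above 0 and the median was 0.19, and by TPM 5 did and the median was 0.0040. Rab27a, which tethers insulin granules beneath the plasma membrane, had 18637 and 29017 counts (log2 0.35, 0.32 to 0.38), at 101.8 and 102.3 TPM. Rab3a, the best-studied granule Rab of beta cells, had 7548 and 11732 counts (0.35, 0.31 to 0.39), at 90.03 and 90.16 TPM. Rab3d, also abundant on acinar granules, had 10228 and 15664 counts (0.33, 0.29 to 0.36), Rab3b 3708 and 4776 (0.08, 0.01 to 0.14), and Rab3c, mainly neuronal, 1142 and 1935 (0.47, 0.37 to 0.58). By TPM the Rab3 genes ranked Rab3a, Rab3b, Rab3d, Rab3c in B6, with Rab3b at 46.1 and Rab3d at 43.2. In CAST Rab3d (42.5) stood above Rab3b (37.8).

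Rab37, a granule Rab, was the only member of the exocytosis group below 0, with 14099 and 14570 counts (log2 -0.24, -0.28 to -0.21). Its level was 109.5 TPM in B6, rank 4 of all Rab genes, and 69.2 in CAST, rank 8. The 2 members of lowest level had the highest ratios of the group, while Rab3d, also abundant on acinar granules, was at log2 0.33. Rab26, a Rab of secretory granules and of synaptic vesicles, had 88 and 207 counts (1.92-fold higher in CAST, log2 0.94, 0.58 to 1.32), and Rab27b, which acts with Rab27a and in acinar secretion, 133 and 248 (1.52-fold, log2 0.61, 0.30 to 0.92). The interval of Rab26 included 2-fold and that of Rab27b lay below it. By TPM with 1 added their ratios were 0.33 and 0.12. Acinar markers summed to 7216 and 25933 TPM in the same libraries, and their part in these ratios was not tested. Rab26 overlaps the antisense gene Rab26os, which had 185 and 117 counts (log2 -0.95), and the strand setting of the counting is not known here.

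In the group of endoplasmic reticulum and Golgi 8 of 14 genes lay above 0, with a median of 0.03 (3 of 14 and -0.28 by TPM). Apart from the Rab6 pair, the 3 members of highest TPM in B6 were within 1.5-fold. Rab1a had 25385 and 37512 counts (log2 0.27, 0.25 to 0.30), Rab1b 8035 and 11716 (0.26, 0.21 to 0.30) and Rab2a 21771 and 29123 (0.13, 0.11 to 0.16). Rab18, which acts at lipid droplets and the endoplasmic reticulum, was at 0.16, and Rab39b, an X-linked gene, at 0.36. On the side of B6, after Rab6b, was Rab19, a little-studied Golgi Rab, with 516 and 366 counts (1.72-fold higher in B6, log2 -0.78, -0.98 to -0.59). Rab34 and Rab36, related Rabs of the Golgi and lysosome positioning, followed at -0.31 and -0.26. The other Golgi Rabs with enough counts lay near 0, with Rab33b, which also acts in autophagy, at 0.055, Rab43 at 0.0064, Rab2b at -0.070 and Rab39 at -0.17, and all 4 intervals included equality.

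Of the 4 Rabs between Golgi and plasma membrane, Rab8a and Rab10, both known from exocytosis of membrane carriers and of glucose transporters, had 4662 and 7051 counts (log2 0.31) and 9768 and 14189 counts (0.25). Rab13, a Rab of epithelial junctions, was the lowest of the group, with 377 and 269 counts (1.71-fold higher in B6, log2 -0.77, -1.01 to -0.55), and Rab8b was at -0.18. In slow recycling and apical sorting, the ratios ran from Rab11a (7928 and 12053 counts, log2 0.32) to Rab17, an epithelial Rab (119 and 123 counts, -0.24, -0.62 to 0.13). Rab25, the epithelial relative of Rab11, had 38.3 and 34.3 TPM, which was 20.6% and 20.5% of the summed Rab11 level. Rab11b, the paralog of Rab11a, was at log2 -0.019 and Rab15, a recycling Rab known from neurons, at -0.080, with intervals that included equality.

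In the late endosome, lysosome and autophagy group Rab7b, a relative of Rab7 known from traffic between late endosomes and the Golgi, had 39 counts in B6 and 164 in CAST. It was 3.41-fold higher in CAST (log2 1.77, 1.27 to 2.33), at 0.28 and 0.72 TPM. It passed the count minimum through its CAST counts, and its call was lost by TPM with 1 added (0.43) and under a minimum of 500 counts. Rab7 itself had 21081 and 28925 counts (log2 0.17, 0.14 to 0.19), so that Rab7b was 0.178% of the pair's TPM in B6 and 0.512% in CAST. Rab9 and Rab12, which act in return from late endosomes and in lysosome traffic, were at 0.18 and 0.24, and Rab9b, the paralog of Rab9, at -0.25. Rab24, an autophagy Rab, was the lowest of the group (3699 and 3514 counts, log2 -0.36, -0.43 to -0.30). It shares 48.9% of its 50-base stretches with the overlapping gene Prelid1 on the opposite strand (4136 and 6152 counts), and the summed counts of both differed by log2 0.01.

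The remaining groups were small. Rab29 and Rab32, Rabs of lysosome-related organelles, had 133 and 128 counts and 56 and 53 counts, with intervals that included equality. The cilium Rabs Rab28 and Rab23 were at log2 0.20 and -0.26. Rab40b and Rab40c, which carry a SOCS box for binding a ubiquitin ligase, were at 0.14 and 0.08, both intervals including equality. The 5 genes under 100 counts were Rab30 (20 counts in B6 and 44 in CAST), Rab38 (16 and 11), Rab42 (13 and 14), Rab33a (7 and 6) and Rab44 (4 and 2). At these depths no difference was detectable in the last 4, and for Rab30 the interval of the log2 ratio ran from 0.06 to 1.69.

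Of 15 groups of 2 to 4 paralogs, Rab6 and Rab22a with Rab31 were those with a member whose share of the summed TPM moved by more than 10 percentage points. Where 1 paralog holds nearly all of the level, as Rab7 (99.8% in B6), Rab27a (99.4%), Rab33b (99.5%) and Rab2a (96.8%) do, such a limit says little about the minor paralog. In the Rab1 pair Rab1a held 69.4% and 70.9%, in the Rab3 set Rab3a held 49.6% and 52.2%, and in the Rab11 set Rab11a held 45.3% and 49.2%. These shares are taken within a library and do not depend on how the libraries are scaled to each other.

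**Figure D4:**
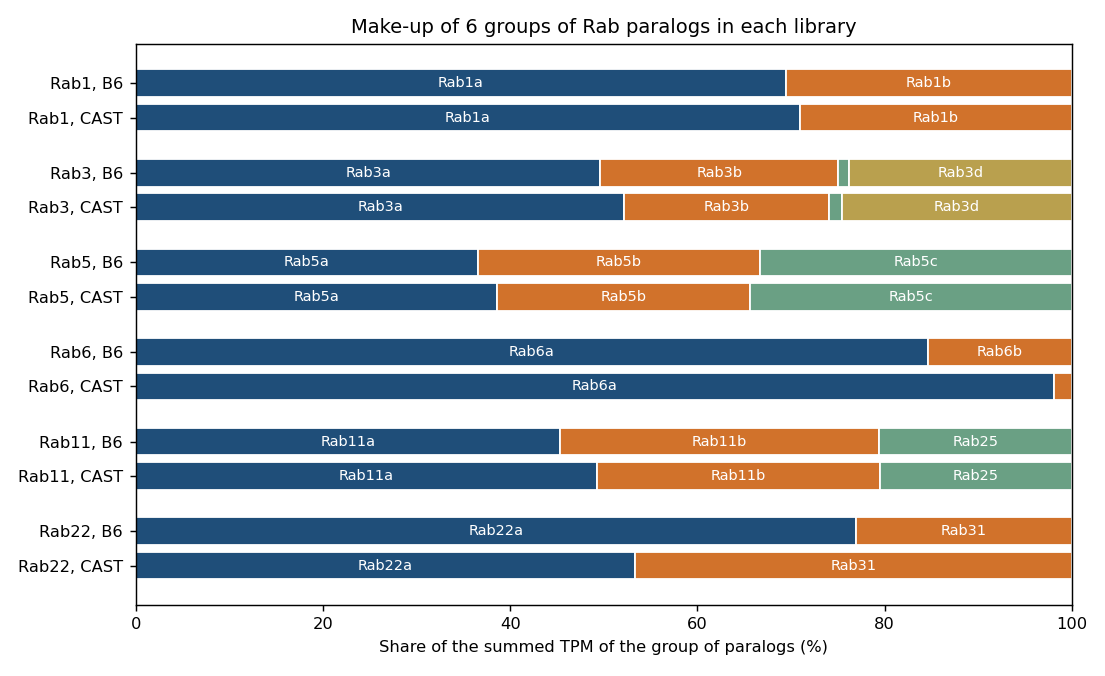
Share of the summed TPM held by each member of 6 groups of Rab paralogs, in percent, with 1 bar for each library. Rab6b narrows from 15.4% in B6 to 1.92% in CAST and Rab31 widens from 23.1% to 46.6%, while the bars of the other 4 groups nearly match. Unlabelled are Rab3c in the Rab3 bars (1.16% and 1.32%) and Rab6b in CAST.

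Of 32 Rab genes with several transcripts whose counts reached 100 in both B6 and CAST, 31 kept the same main transcript. The exception was Rab34, a Rab of Golgi and cilium formation, whose 2 main transcripts begin at different first exons on chromosome 11. The downstream form, of 10 exons, had 918 and 701 counts (log2 -0.68, -0.82 to -0.53), and its share of the gene's TPM was 47.3% and 35.9%. The upstream form, of 11 exons, had 568 and 842 counts (log2 0.28, 0.12 to 0.43), with 36.5% and 53.7%. Both are annotated as protein coding. The 250 bases before each of the 2 start sites that RefSeq lists (GRCm38.p6, plus strand) are shown because the difference lies between these starts, which are 3 and 31 bases before the GENCODE starts of the upstream and the downstream form. Capitals mark CG dinucleotides, the sites of DNA methylation.
Rab34 first start, chr11:78188177-78188426: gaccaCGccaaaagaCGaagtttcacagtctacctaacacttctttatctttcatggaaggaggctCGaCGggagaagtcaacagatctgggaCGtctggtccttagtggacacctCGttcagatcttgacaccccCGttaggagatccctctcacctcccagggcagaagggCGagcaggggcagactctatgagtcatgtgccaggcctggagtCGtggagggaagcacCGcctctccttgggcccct
Rab34 second start, chr11:78188498-78188747: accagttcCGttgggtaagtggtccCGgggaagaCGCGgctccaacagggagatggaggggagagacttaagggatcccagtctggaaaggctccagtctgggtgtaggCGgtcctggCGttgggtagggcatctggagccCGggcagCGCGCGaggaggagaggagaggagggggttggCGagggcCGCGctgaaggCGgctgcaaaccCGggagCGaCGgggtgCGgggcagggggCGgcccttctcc
The first window holds 10 CG dinucleotides and the second 19, where the median of 32851 promoter windows of this length is 6. At least 10 were found in 37.8% of all windows and at least 19 in 19.7%. No methylation was measured.

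In 4 of the 32 genes the share of the main B6 transcript moved by more than 10 percentage points, in Rab6a, Rab34, Rab27b and Rab22a. The short transcript Rab22a-202 had 56 and 158 counts and went from 6.54% to 16.8% of the gene's TPM. In Rab1a, the 4-exon transcript Rab1a-202 (the main form has 6 exons) had 1987 and 4809 counts (log2 0.99, 0.91 to 1.06). Its share was 17.1% and 26.4%. By share of TPM, the main transcript of Rab8a in both libraries was Rab8a-202, which is not annotated as protein coding and retains an intron. It is only 542 bases long, and had 527 and 914 counts (log2 0.50, 0.35 to 0.66) and 54.8% and 58.9% of the gene's TPM. Most counts of the gene were those of the protein-coding Rab8a-201, of 4550 bases. That form had 4131 and 6138 counts and, as TPM corrects for length, 44.4% and 41.1% of the gene's TPM. Transcripts that retain an intron were mostly lower in CAST. Of 15 such Rab transcripts with 100 or more counts 13 had a ratio below 0, and 4, from Rab27a, Rab37, Rab2b and Rab34, were called higher in B6 and 0 higher in CAST. This is near the background, since of 3510 such transcripts of all genes 30.2% were called higher in B6, 3.11% higher in CAST, and 82.7% had a ratio below 0. The most counted of the 4, that of Rab37, had 440 and 152 counts (log2 -1.82, -2.10 to -1.55). Protein-coding Rab transcripts had a median of 0.17, and 1 of 81 was called higher in B6, against 7.90% of those of all genes, and 7 higher in CAST, against 9.03%.

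Adding the counts of near-identical copies moved few of these values. The largest share of 50-base stretches in common with other genes was that of Rab4b, at 93.1%, mainly with Gm21983 (29 and 5 counts). The counts of Rab4b thus rest on how RSEM divided such reads, which is not known here. A gene with a transcript of at least 95% identity by the rule used was found for 7 Rab genes. For all but Rab24 adding the partner's counts moved the log2 ratio by less than 0.2, and the processed pseudogenes of Rab5b, Rab6a, Rab8b, Rab9 and Rab11b had at most 1 count in a library. Rab6a shares 22.3% of its 50-base stretches, mostly with Mrpl48, a mitochondrial ribosomal gene on the opposite strand (2533 and 3630 counts, log2 0.23). Rab7 overlaps the antisense gene Gm5577 (480 and 116 counts). Of the 59 genes 37 had no 50-base stretch in common with another listed gene. How far CAST variants against the B6 reference lower or raise a ratio was not tested.

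The proteins that run the Rab cycle were described by lists from general knowledge. Of the 11 genes for membrane extraction, prenylation and related factors, none was called and 8 lay above 0, with a median log2 ratio of 0.28 (0.12 with total counts, -0.068 by TPM). Gdi2, a carrier that extracts Rabs from membranes, had 15086 and 20032 counts (log2 0.12). Highest were Rabggtb, the catalytic subunit of the transferase that attaches the prenyl anchor to Rabs (3344 and 5843 counts, 0.52), and Yipf5, a Golgi membrane protein (0.42). Lowest were Chml, an escort protein for that reaction (238 and 199 counts, -0.55), and Rabggta, the other transferase subunit (-0.15).

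Exchange factors had 37 members, of which 1 was called higher in B6 and none higher in CAST, with a median of -0.12 and 26 below 0. The called gene was Dennd2c (73 and 44 counts, log2 -1.01, -1.59 to -0.46), and Dennd6b followed (1926 and 1257, -0.90). At the other end were Dennd1c (145 and 245 counts, 0.47) and Rin3, an exchange factor of the Rab5 group (242 and 381, 0.37). Of 33 GTPase activating proteins none was called, with a median of -0.05. Tbc1d16 was the lowest (9135 and 6564 counts, -0.77), then Tbc1d22b (-0.71). Highest were Tbc1d4, also known as AS160, which restrains Rabs of glucose transporter traffic (1017 and 2146 counts, 0.79, 0.68 to 0.90), and its relative Tbc1d1 (6793 and 12209, 0.56).

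Among effectors of Rab3 and Rab27, 1 gene was called in each direction. Rph3a, which encodes rabphilin, a protein that binds Rab3a and Rab27 on granules, had 4 and 283 counts (log2 5.70, 4.48 to 7.74), at 0.015 and 0.70 TPM. Even in CAST it was far below its relative Rph3al, which encodes the granule protein Noc2 (70.1 and 74.5 TPM, 8877 and 14093 counts, log2 0.38). It passed the count minimum through its CAST counts, and by TPM with 1 added or with a minimum of 500 counts no gene of this list was called higher in CAST. Called higher in B6 was Sytl3, a synaptotagmin-like effector of Rab27 (354 and 188 counts, -1.20, -1.47 to -0.94), with Sytl2 next (397 and 260, -0.90). Myrip, which links Rab27a to myosin, was at 0.92 (490 and 1133 counts). Over the 15 genes with enough counts the median was -0.22, with 9 below 0. Rims1 and Rims4 had under 100 counts.

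Among 31 other effectors, 1 was called higher in B6 and the median was -0.07. It was Mical3, which binds Rab8a and acts with Rab6 in the fusion of exocytotic carriers (3867 and 1501 counts, 3.15-fold higher in B6, log2 -1.65, -1.74 to -1.57). Appl2, an endosomal effector of Rab5, followed (12339 and 8005 counts, -0.91). Rab11fip4, which binds Rab11, was the highest (625 and 1000 counts, 0.39), with Micall2, an effector of Rab13, at 0.35. The Arf, Arl and Sar1 GTPases, the other large family of small GTPases in membrane traffic, had a median of 0.20 over 26 genes, with 2 called higher in CAST and none higher in B6. The called genes were Arl4d (1389 and 4590 counts, 1.44) and Arl4c (665 and 2098, 1.37), and the lowest were Arl5a (-0.41) and Arl13b (-0.38). In each of these lists the share called in either direction was at most 13.3%, against 13.2% over all genes.

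**Figure D5:**
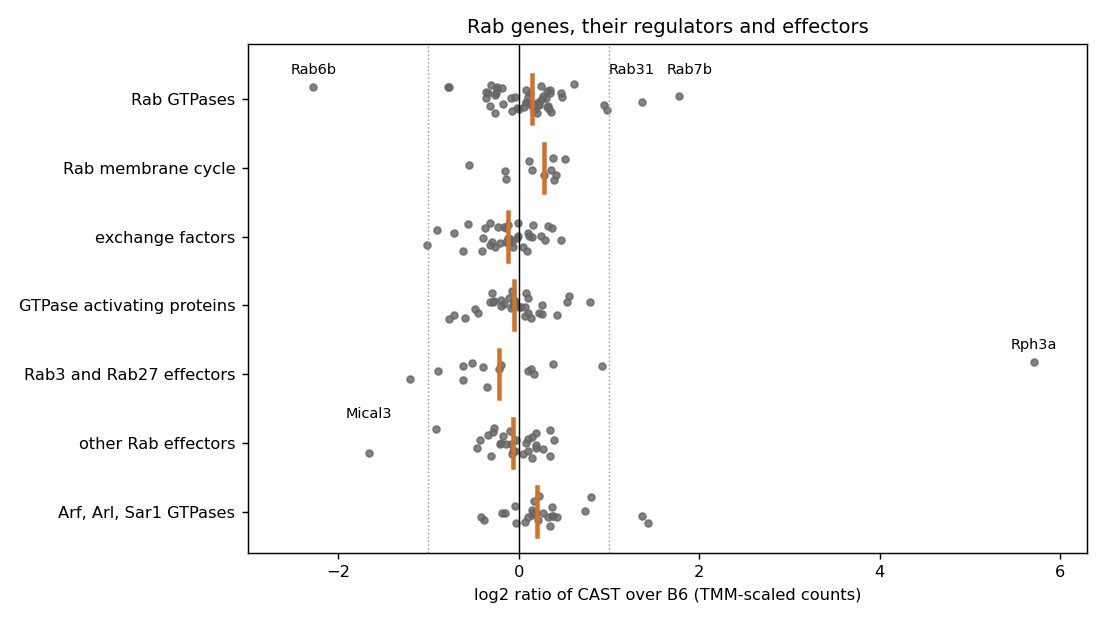
Ratio of CAST over B6 on the log2 scale (TMM-scaled counts) for each gene with 100 or more counts among the Rab genes, 5 lists of Rab regulators and effectors, and the Arf, Arl and Sar1 GTPases. Orange bars mark the medians, from -0.22 for the Rab3 and Rab27 effectors to 0.28 for the membrane cycle, and dotted lines 2-fold. Points are spread vertically only to be seen, and Rph3a stands far right at 5.70.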

How the data were processed

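RNA of islets was sequenced as 1 library per strain. Per the submitters' processing notes, the authors used RSEM on GRCm38, and each deposited file lists 94545 transcripts with an expected count and a fraction of all transcript molecules. The fraction, deposited without a header, sums to 1 in each library and was multiplied by 1000000 to give TPM. The aligner, its version, the annotation release and the strand setting are not stated in the labels or notes.

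Transcript counts were added up by gene, then rounded to whole numbers. Of 38924 gene IDs 37607 matched a symbol in GENCODE M21 (GRCm38). TMM factors (edgeR 4.0.16, R 4.3.3) were 1.056 for B6 and 0.947 for CAST. The log2 ratio is that of scaled counts with 0.5 added, where the libraries together had at least 100 counts. Its 95% interval comes from the exact binomial (Clopper-Pearson) bounds on the fraction of counts that are CAST. Reads are not independent molecules, so intervals cover counting error only. The computation was tested on simulated data.

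Near-identical copies were sought with minimap2 2.31 (longest transcripts, 95% identity, an aligned part of 200 bases or more that covers 50% of the shorter one). Alternatives used DESeq2 1.42.0 size factors, total counts, TPM with a pseudocount of 1, other count minimums, thinning and copies. Genes named are the called ones, the 10 highest by TPM, all exocytosis Rabs, the extremes of each group and list, those under 100 counts and those with another main transcript. Others, including the paralogs, transcripts and promoters described, were chosen after their values were seen. The members and lists were chosen with earlier results of these data known. Protein data and protein features were not analysed here. Scripts ran in Python 3.11.15 with pandas 2.3.3, numpy 2.4.6, matplotlib 3.10.9 and scipy 1.17.1.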

Additional observations from a re-analysis of the deposited data

How the results depend on the processing

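Rab6b stayed called under all alternatives run, and no called ratio changed sign. Rab31 and Rab7b stayed called with DESeq2 size factors, total counts, thinning and copies summed or left out. The number of Rab genes called higher in CAST was 2, and 0 by TPM with 1 added, 1 with a minimum of 500 counts and 1 by TPM without the hormone genes, an alternative added after seeing the data. With no minimum 2 were called higher in B6, the second being Rab44 with 4 and 2 counts. The median of the Rab genes was -0.013 with total counts, -0.18 by TPM and -0.055 by TPM without hormones. The share of the 10 highest was 56.0% in B6 and 57.3% in CAST when counts were divided by the length of the main transcript. With total counts the list medians were 0.12 (membrane cycle), -0.27 (exchange factors), -0.21 (activating proteins), -0.37 (Rab3 and Rab27 effectors), -0.22 (other effectors) and 0.048 (Arf family), and by TPM -0.068, -0.40, -0.35, -0.49, -0.38 and -0.093. With no minimum the Rab3 and Rab27 effectors stood at -0.35. With total counts 2 genes were called higher in B6 in each of the exchange factors and both effector lists. By TPM it was 2 activating proteins and 2 other effectors, and higher in CAST 0 Rab3 and Rab27 effectors and 1 of the Arf family. With a minimum of 500 counts 0 exchange factors were called higher in B6 and 0 Rab3 and Rab27 effectors higher in CAST. With no minimum 1 activating protein was called higher in CAST and 1 gene of the Arf family higher in B6. The causes were not tested. With 1 library per strain no library could be left out.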
